A study of Homo sapiens with 8 samples.

Results

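The response to AFZC was compared between 2 human colorectal carcinoma cell lines, HCT116, from a primary tumour of the colon, and SW620, from a lymph node metastasis. Per the series title, AFZC belongs to metal-organic framework particles that carry 5-fluorouracil (5-FU) and an aptamer on their surface, studied for peroxidative cell death. Free 5-FU, a pyrimidine analogue, was the comparator. Each line received each agent for 24 h at the IC50 that the agent has in that line. The 4 groups (HCT116 with 5-FU, HCT116 with AFZC, SW620 with 5-FU and SW620 with AFZC) had 2 libraries each, and all 8 libraries of the series entered 1 model. Each response is relative to 5-FU, as untreated cells were not analysed here, and the labels give no amount behind each IC50. The quantity followed is the difference of effects, the log2 fold change of AFZC against 5-FU in SW620 minus the same in HCT116. A positive value means that a gene stood higher, relative to 5-FU, in SW620 than in HCT116.

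As background, 5-FU is converted in cells to fluorodeoxyuridylate, which blocks thymidylate synthase, and to fluorouridine triphosphate, which enters RNA. Cells with stalled forks or broken DNA can induce genes that stop the cycle, repair DNA or sensitise the cell to death, among them CDKN1A, MDM2, BAX and FAS. Genes for DNA replication are transcribed under E2F control towards S phase, and many mitotic genes later, in G2 and M, from promoters with a CHR element. A gene that is reversed between the lines rose in one line and fell in the other.

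Libraries held 31991561 to 40590291 counts and 24427 to 28340 genes with counts, and mitochondrial genes took 5.18% to 12.4% of the counts. No pair was a single library deposited again, since the chi-square over its degrees of freedom was 20.91 to 51.47, highest in the AFZC pairs. Whether a pair stems from separate cultures is not stated, and p-values therefore rest on a spread between libraries that could be technical only. Summed markers of colorectal epithelium stood at 3929 to 4852 CPM (TMM-scaled counts per 1e6 counts) in HCT116 under 5-FU and at 5355 to 8740 under AFZC, against 16110.0 to 17760.0 and 5608 to 6050.0 in SW620. The sum was higher under AFZC in HCT116 and lower in SW620 without overlap of the libraries, KRT8, KRT18 and KRT19 gave most of it, and its part in other results was not tested. Of 15 leukocyte markers 8 were tested, and PTPRC, the defining one, had at most 2 counts in a library. To look for RNA shared between lines, protein-coding genes with 0 counts in both 5-FU libraries of a line and at least 20 CPM in all libraries of the other were listed, a check added after the data were seen. In HCT116 19 of 23 such genes were still at 0 in each AFZC library, and in SW620 15 and 17 of 28.

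AFZC effects differed between the lines for 2091 of 21378 genes tested. They stood higher in SW620 for 1207 genes, or 5.65% of genes tested, and lower for 884, or 4.14%, and 1109 and 642 of these differed by at least 2-fold. Of the genes higher in SW620, 905 rose in SW620 with no call in HCT116, 120 fell in HCT116 alone, 53 were reversed, 29 had calls of the same direction in both lines and 100 had no call in either line. Of the genes lower in SW620, 395 rose in HCT116 alone, 291 fell in SW620 alone, 82 were reversed, 9 had calls of the same direction and 107 no call in either line. A call is an adjusted p under 0.05 in edgeR's quasi-likelihood test, adjusted over all genes tested (Benjamini-Hochberg), and all standard errors (SE) come from that fit. Reversed genes were 0.248% of genes tested for a rise in SW620 with a fall in HCT116, and 0.384% for the opposite. Within a line, AFZC raised 1254 genes in HCT116 (5.87%) and lowered 800 (3.74%), and raised 2482 in SW620 (11.6%) and lowered 1486 (6.95%).

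Genes called in both lines numbered 655, of which 257 rose in both, 263 fell in both and 135 had opposite signs. A call in a single line did not by itself make a difference between lines. Of 1399 genes called in HCT116 alone 36.8% had a called difference, and of 3313 called in SW620 alone 36.1%. Across genes the effects of both lines had a Pearson r of 0.214 and a Spearman rho of 0.185, a description over genes of shared libraries. Scaling sets the split of directions. With library sizes in place of TMM factors the median difference of all genes moved from 0.04 to 0.39 (log2), and the calls became 2455 higher and 430 lower, or 85.1% higher against 57.7%. The counts also rest on single libraries: calls were 478 higher and 279 lower without the first HCT116 5-FU library, 582 and 414 without the second, 655 and 362 without the second SW620 5-FU library, and 902 and 545 without the first HCT116 AFZC library.

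**Figure D1:**
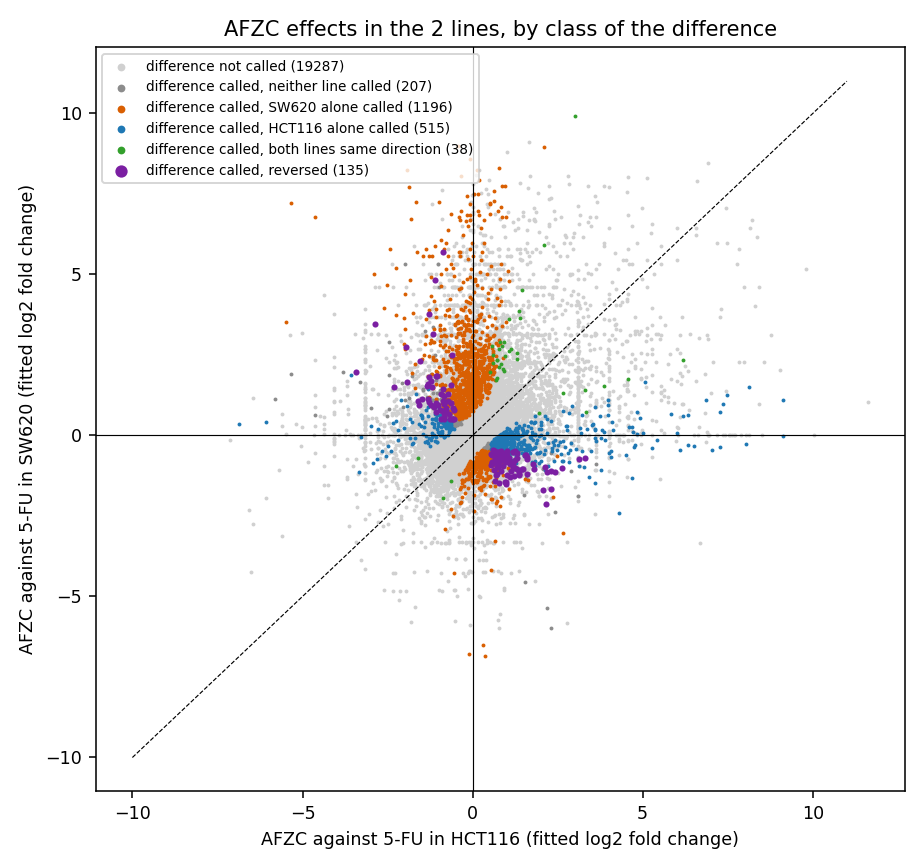
Fitted log2 fold change of AFZC against 5-FU in HCT116 (horizontal) and in SW620 (vertical), 1 point per gene for 21378 genes, coloured by the class of the difference, with equal effects on the dashed line. Genes called in SW620 alone (905 rose, 291 fell) lie above and below the horizontal axis, those called in HCT116 alone (395 rose, 120 fell) spread along it, and the 135 reversed genes lie to the upper left and the lower right.

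Damage-inducible genes of cell cycle arrest and death (among them CDKN1A, MDM2, BAX and FAS) rose in HCT116 and mostly not in SW620. CDKN1A and FAS rose in SW620 too, by less than in HCT116. The list leaves out the recombination and Fanconi repair genes, of which 15 of 20 tested were called higher in SW620 (described further on). Of the 30 genes of this list, all tested, 29 rose in HCT116, while 5 rose and 4 fell in SW620. The difference was called lower in SW620 for 24 members and higher for 0, where the share over all genes tested was 4.14% lower. Their median difference was -1.61 on the log2 scale (1.74 in HCT116, -0.01 in SW620), against 0.04 over all genes. Leaving out a library gave 16 to 24 called members, the fewest without the second HCT116 5-FU library. The summed level of the list was 1903 and 1847 CPM in HCT116 under 5-FU, 8363 and 7461 under AFZC, 2536 and 2887 in SW620 under 5-FU and 2146 and 2127 under AFZC. Both AFZC libraries of HCT116 stood far above their 5-FU pair, and those of SW620 stood below theirs. The SW620 direction depends on the scaling. As a share of counts the SW620 libraries overlapped (0.220% and 0.236% under 5-FU, 0.238% and 0.228% under AFZC), and with library sizes only the SW620 median was 0.35, with 9 members higher and 3 lower.

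CDKN1A encodes the cyclin-dependent kinase inhibitor p21 (chr6:36676460-36687339, GRCh38). It was measured at 189 and 175 CPM in HCT116 under 5-FU, 2030.0 and 1633 under AFZC, 71.2 and 99.9 in SW620 under 5-FU and 158 and 123 under AFZC. AFZC libraries stood above the 5-FU libraries in both lines, and the effects were 3.33 ± 0.22 in HCT116 and 0.71 ± 0.21 in SW620. CDKN1A thus rose in both lines, with a difference of -2.62 ± 0.30 (adjusted p = 0.000299). MDM2, a ubiquitin ligase (chr12:68808176-68850686), stood at 91.8 and 105 CPM in HCT116 under 5-FU, 420.5 and 898 under AFZC, 35.9 and 41.5 in SW620 under 5-FU and 43.3 and 50.7 under AFZC. The HCT116 AFZC libraries lay far above their 5-FU pair, with the second above the first, and those of SW620 lay only a little above theirs. The difference for MDM2 was -2.46 ± 0.41 (adjusted p = 0.00453). TP53I3, a quinone oxidoreductase (chr2:24077433-24085861), was at 11.6 and 8.62 CPM in HCT116 under 5-FU, 151 and 131 under AFZC, 3.96 and 3.14 in SW620 under 5-FU and 4.33 and 3.71 under AFZC. Its SW620 libraries overlapped between agents, and its difference of -3.62 ± 0.29 (adjusted p = 6.97e-05) was the largest of the list.

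GDF15, a secreted stress cytokine, differed by -3.06 ± 0.29 (adjusted p = 0.000114), the phosphatase PPM1D by -1.86 ± 0.24 (adjusted p = 0.000603), and RRM2B, the damage-inducible subunit of ribonucleotide reductase, by -1.70 ± 0.22 (adjusted p = 0.000666). PLK3, a stress-activated kinase, stood at 34.3 and 34.1 CPM in HCT116 under 5-FU, 362 and 139 under AFZC, 49.9 and 76.0 in SW620 under 5-FU and 39.8 and 52.1 under AFZC. The first HCT116 AFZC library was well above the second, and the SW620 libraries overlapped. PLK3 differed by -3.33 ± 0.59 (adjusted p = 0.0128). FAS, a death receptor, rose in both lines (effects 2.66 ± 0.23 in HCT116 and 1.32 ± 0.24 in SW620) and differed by -1.34 ± 0.33 (adjusted p = 0.0225). Members without a called difference were SPATA18, TP53INP1, SESN1, DDB2, POLH and CCNG1, with values from -2.99 to -0.74. For PLK3 the call was lost without either HCT116 5-FU library, the second SW620 5-FU library or either SW620 AFZC library (highest adjusted p 0.141) and for EDA2R without either HCT116 5-FU library, the first HCT116 AFZC library, either SW620 5-FU library or the first SW620 AFZC library (highest adjusted p 0.154). EDA2R, a receptor of the tumour necrosis factor family, had a difference of -3.44 ± 0.95 (adjusted p = 0.0379), with at most 1.46 CPM in a library.

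**Figure D2:**
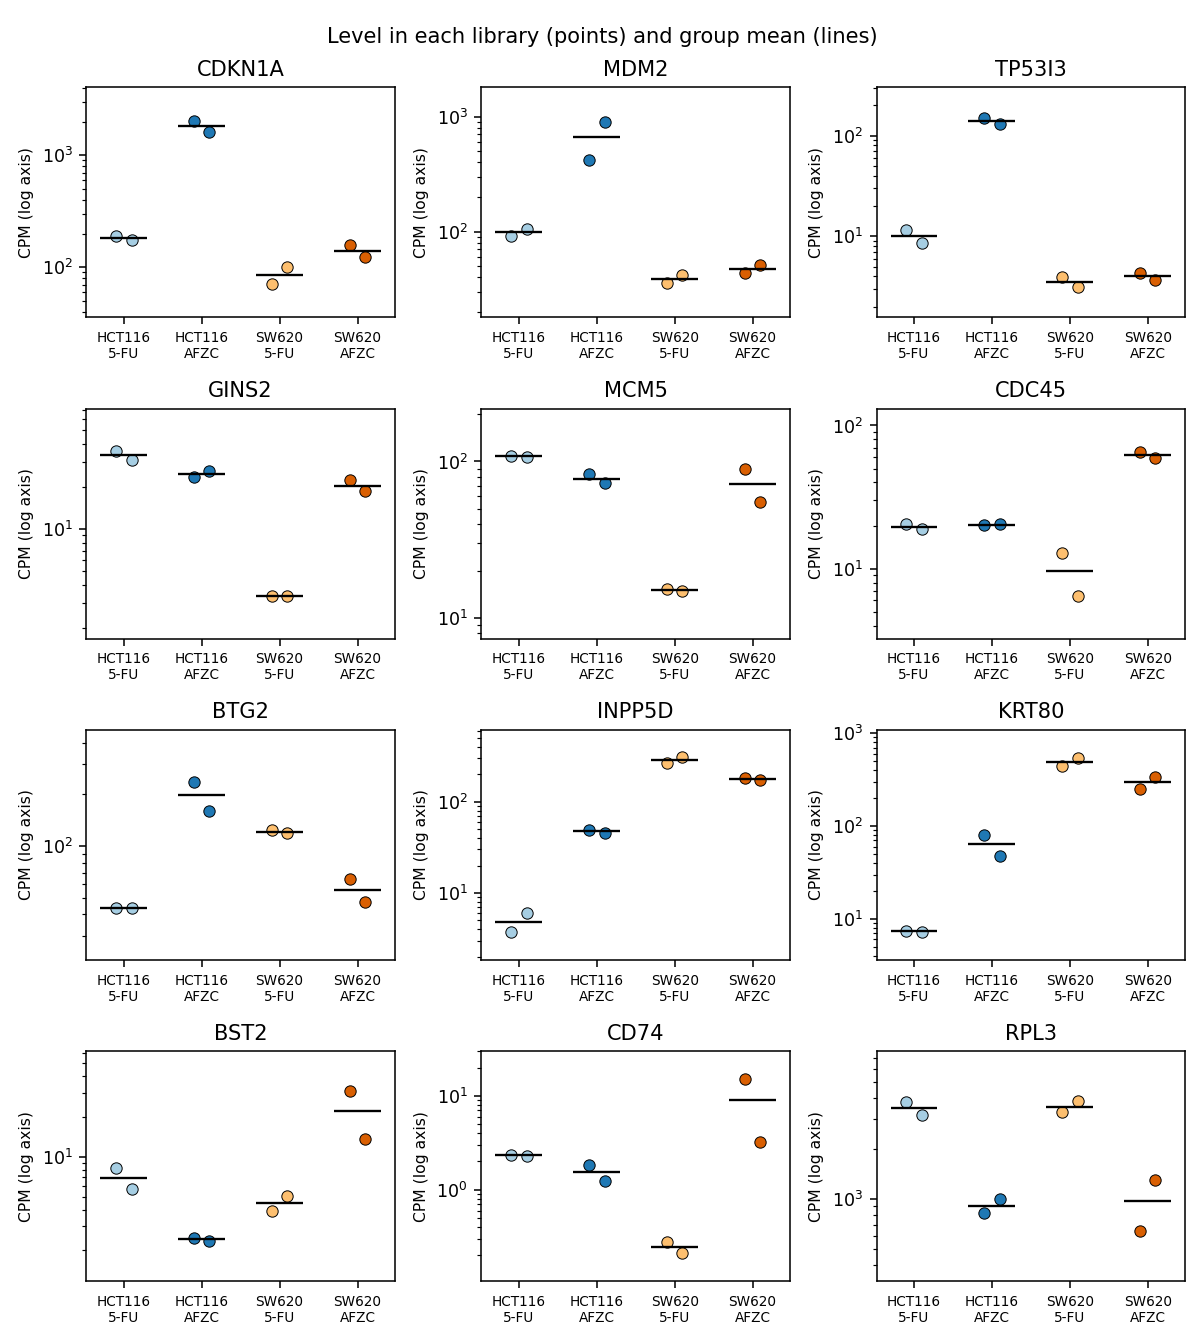
Level of 12 genes in each library in CPM on log axes, with points for the 2 libraries of a group and a line at their mean. CDKN1A, MDM2 and TP53I3 stand high under AFZC in HCT116 only or mainly, GINS2, MCM5 and CDC45 stand low under 5-FU in SW620 only, BTG2, INPP5D and KRT80 rise in HCT116 and fall in SW620, BST2 does the opposite, CD74 rises in SW620, and RPL3 falls in both lines.

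Genes of DNA replication and E2F targets, kept as 1 list, rose in SW620 and had few calls in HCT116. All 39 members of the list rose in SW620, while 3 rose and 2 fell in HCT116. The difference was called higher in SW620 for 37 of 39 and lower for 0, where 5.65% of genes tested were called higher. Their median difference was 1.86 on the log2 scale (0.05 in HCT116, 1.91 in SW620), and leaving out a library left 34 to 36 members called. Summed levels were 2485 and 2525 CPM in HCT116 under 5-FU, 2578 and 2653 under AFZC, 1148 and 1047 in SW620 under 5-FU and 3390.0 and 3242 under AFZC. The HCT116 libraries lay close together under both agents, the SW620 5-FU libraries stood below all others and the SW620 AFZC libraries above all others. Members without a call were PCNA, the sliding clamp, with 0.78 ± 0.23 (adjusted p = 0.0510), and the repressor E2F7, with -0.48 ± 0.29 (adjusted p = 0.328). Both rose in both lines.

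The promoters of these genes are described because the members move together. The list was compiled as DNA replication genes and E2F targets, so its share of E2F-like motifs is partly set by that choice. Promoter sequence here is the 250 bases before the start site of RefSeq (GRCh38.p14), which matched 35 of the 39 members. TTTNNCGC, a form of the E2F site read on both strands, occurred in 48.6% of these 35 promoters, in 8.29% of the promoters of 12634 genes tested and in 5.93% of all 27305. CCAAT, on either strand, was in 57.1% of them, against 34.6% and 33%. TTTGAA, the core of the CHR element, was in 0% of the replication promoters and in 53.8% of 26 promoters of mitosis genes, against 8.7% of the genes tested and 13.6% of all, and CCAAT was in 76.9% of the mitosis promoters. TTTNNCGC was in 10.5% of 19 promoters of recombination and Fanconi genes, whose called differences were also higher in SW620, and in 7.69% of the mitosis promoters. In the damage-inducible list, whose called differences were lower in SW620, 16.7% of 24 promoters held TTTNNCGC and 54.2% CCAAT. A match describes the letters and not binding. The promoters printed below were picked for a motif, TTTNNCGC in the replication list or TTTGAA in the mitosis list, and for a large called difference. Their matches to that motif were thus fixed by the choice. The promoters of E2F1 (chr20:33686386-33686635, minus strand), GINS2 (chr16:85688955-85689204, minus strand), ESPL1 (chr12:53268049-53268298, plus strand) and KIF23 (chr15:69414099-69414348, plus strand) follow, the last 2 from the mitosis list, read 5′ to 3′ with these motifs on either strand in capitals.
E2F1: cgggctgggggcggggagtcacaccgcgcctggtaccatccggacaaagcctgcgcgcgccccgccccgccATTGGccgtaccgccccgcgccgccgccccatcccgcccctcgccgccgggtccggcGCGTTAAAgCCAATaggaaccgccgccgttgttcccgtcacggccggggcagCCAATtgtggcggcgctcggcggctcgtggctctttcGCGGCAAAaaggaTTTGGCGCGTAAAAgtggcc
GINS2: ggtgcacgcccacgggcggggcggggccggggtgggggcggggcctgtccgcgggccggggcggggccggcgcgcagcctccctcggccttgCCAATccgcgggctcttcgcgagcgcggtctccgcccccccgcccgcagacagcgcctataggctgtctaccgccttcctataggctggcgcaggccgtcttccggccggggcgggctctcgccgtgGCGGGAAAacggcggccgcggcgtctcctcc
ESPL1: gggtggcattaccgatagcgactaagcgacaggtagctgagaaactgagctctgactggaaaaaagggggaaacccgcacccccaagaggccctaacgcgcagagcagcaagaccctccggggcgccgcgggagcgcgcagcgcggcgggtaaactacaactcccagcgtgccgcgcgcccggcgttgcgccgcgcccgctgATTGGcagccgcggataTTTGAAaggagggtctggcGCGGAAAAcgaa
KIF23: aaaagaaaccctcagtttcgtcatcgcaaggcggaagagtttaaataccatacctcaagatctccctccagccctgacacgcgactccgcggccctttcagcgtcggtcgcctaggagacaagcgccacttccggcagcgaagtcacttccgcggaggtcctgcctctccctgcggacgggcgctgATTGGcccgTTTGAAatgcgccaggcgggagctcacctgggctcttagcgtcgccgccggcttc
The E2F1 promoter held 4 TTTNNCGC matches, 2 of which overlap. GINS2 held 1, ESPL1 held 1 beside 1 TTTGAA, and KIF23 held TTTGAA without TTTNNCGC. E2F1 differed by 2.41 ± 0.24 (adjusted p = 0.000114), ESPL1 (separase) by 1.62 ± 0.28 (adjusted p = 0.00417) and KIF23, a kinesin of cytokinesis, by 1.75 ± 0.31 (adjusted p = 0.00467).

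GINS2, a subunit of the replicative helicase, stood at 35.7 and 30.8 CPM in HCT116 under 5-FU, 23.3 and 25.9 under AFZC, 3.34 and 3.35 in SW620 under 5-FU and 22.1 and 18.6 under AFZC. The 5-FU libraries of SW620 were lowest and nearly equal, and its AFZC libraries stood clear of them, while HCT116 AFZC lay slightly below HCT116 5-FU. The difference of 3.04 ± 0.28 (adjusted p = 0.000102) was the largest of the list. MCM5, another helicase subunit, was at 109 and 107 CPM in HCT116 under 5-FU, 82.7 and 72.4 under AFZC, 15.4 and 14.8 in SW620 under 5-FU and 89.5 and 54.9 under AFZC and differed by 2.73 ± 0.29 (adjusted p = 0.000182). CDC45, the helicase cofactor, was at 20.5 and 18.8 CPM in HCT116 under 5-FU, 20.2 and 20.4 under AFZC, 12.8 and 6.50 in SW620 under 5-FU and 65.6 and 59.7 under AFZC and differed by 2.65 ± 0.36 (adjusted p = 0.000861). HCT116 libraries of CDC45 overlapped between agents, and the SW620 libraries did not. MCM6 and MCM7, of the same hexamer as MCM5, fell in HCT116 and rose in SW620, so both are reversed. MCM6 stood at 127 and 126 CPM in HCT116 under 5-FU, 78 and 75.7 under AFZC, 50.4 and 49.6 in SW620 under 5-FU and 132 and 113 under AFZC. Groups of MCM6 did not overlap within a line, with effects of -0.72 ± 0.14 in HCT116 and 1.29 ± 0.15 in SW620 and a difference of 2.01 ± 0.20 (adjusted p = 0.000142). MCM7 had a difference of 1.41 ± 0.23 (adjusted p = 0.00267). E2F8, an E2F repressor, rose in both lines (1.38 and 3.87 on the log2 scale), with a difference of 2.49 ± 0.41 (adjusted p = 0.00324).

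Called recombination and mitosis genes were also higher in SW620, against a share of 5.65% called higher over all genes tested. For homologous recombination and Fanconi repair 15 of 20 tested members (22 listed) were called higher and 0 lower, with a median of 1.71 on the log2 scale (0.30 in HCT116, 1.95 in SW620). The nuclease subunit EME1 differed by 2.42 ± 0.31 (adjusted p = 0.000666). RAD54L, a recombination translocase, stood at 16.6 and 17.4 CPM in HCT116 under 5-FU, 22.0 and 21.0 under AFZC, 6.09 and 5.86 in SW620 under 5-FU and 43.6 and 37.7 under AFZC. The SW620 libraries were well separated and those of HCT116 just separated, and the difference was 2.43 ± 0.26 (adjusted p = 0.000205). For mitosis 13 of 32 members were called higher and 0 lower, with a median of 1.07 on the log2 scale (0.40 in HCT116, 1.53 in SW620). All 32 mitosis members had a positive difference, and the count ran from 9 without the first HCT116 5-FU library to 27 without the second HCT116 AFZC library. CDC25C, the phosphatase that activates CDK1, differed by 2.20 ± 0.37 (adjusted p = 0.00360), BIRC5 (survivin) by 2.09 ± 0.29 (adjusted p = 0.000978) and KIF2C, a microtubule depolymerase, by 1.94 ± 0.28 (adjusted p = 0.00132). MKI67, the proliferation marker, stood at 210.4 and 376 CPM in HCT116 under 5-FU, 484 and 639 under AFZC, 129 and 93.5 in SW620 under 5-FU and 754 and 464 under AFZC. Its AFZC libraries were higher in both lines, and the difference of 1.52 ± 0.43 (adjusted p = 0.0525) was not called.

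**Figure D3:**
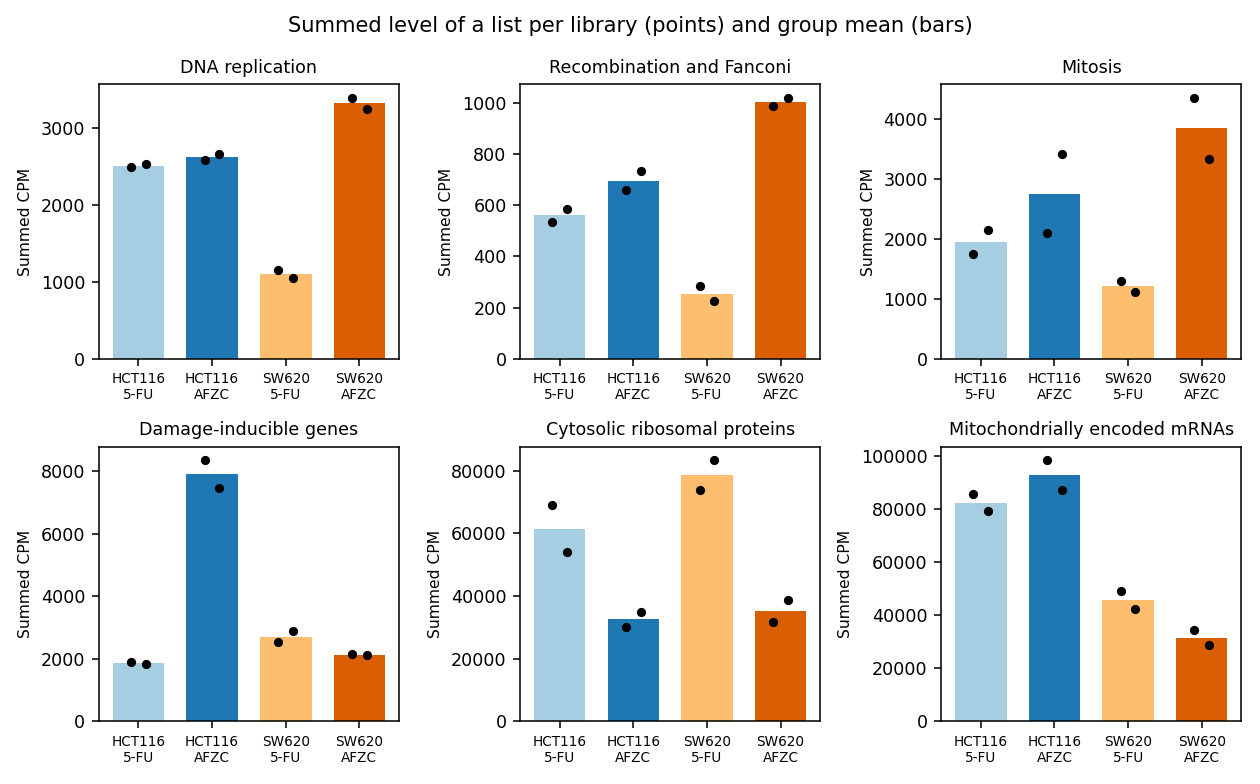
Summed level of 6 gene lists per library in CPM, with points for libraries and bars at the mean of a group. Replication, recombination and mitosis genes have their lowest mean in SW620 under 5-FU and their highest in SW620 under AFZC, damage-inducible genes stand out in HCT116 under AFZC, ribosomal protein genes fall in both lines, and mitochondrially encoded mRNAs are lower in SW620 under AFZC on this scale, while their SW620 median was 0.38 after cyclic loess.

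Thymidylate and dNTP supply split in both directions, with 9 of 29 members called higher in SW620 and 4 lower (5.65% and 4.14% over all genes tested). The median was 0.29 on the log2 scale (0.13 in HCT116, 0.39 in SW620). TYMS, thymidylate synthase and the enzyme that 5-FU blocks, stood at 17.3 and 16.4 CPM in HCT116 under 5-FU, 20.1 and 30.6 under AFZC, 2.82 and 1.96 in SW620 under 5-FU and 13.3 and 16.3 under AFZC. AFZC libraries were above 5-FU libraries in both lines, and the difference was 2.04 ± 0.37 (adjusted p = 0.00520). DUT, which removes dUTP, was at 49.1 and 41.2 CPM in HCT116 under 5-FU, 25.7 and 32 under AFZC, 26.3 and 24.1 in SW620 under 5-FU and 71.2 and 79.0 under AFZC. It was reversed, with a difference of 2.22 ± 0.24 (adjusted p = 0.000233) and no overlap within a line. SHMT1, a folate cycle enzyme, differed by 2.02 ± 0.30 (adjusted p = 0.00164), TK1, thymidine kinase, by 1.90 ± 0.24 (adjusted p = 0.000614) and RRM2, a subunit of ribonucleotide reductase, by 1.57 ± 0.33 (adjusted p = 0.0120). The members lower in SW620 were RRM2B (-1.70), NME1 (-1.20) and the mitochondrial folate enzymes MTHFD1L (-1.30) and MTHFD2 (-1.13). Of 18 replication-dependent histone genes 11 passed the filter on low counts, 5 were called lower in SW620 and 0 higher, with a median of -1.72 on the log2 scale (-0.35 in HCT116, -2.05 in SW620). HIST1H2AC stood at 21.6 and 14.7 CPM in HCT116 under 5-FU, 8.98 and 15.5 under AFZC, 12.3 and 12.7 in SW620 under 5-FU and 2.31 and 2.09 under AFZC. It fell in SW620, where both AFZC libraries lay below all others, with a difference of -1.94 ± 0.42 (adjusted p = 0.0124). These mRNAs mostly lack a poly(A) tail and the libraries were made from polyadenylated RNA, and the genes have near-identical copies, so their values are uncertain. For HIST1H2AC the call was lost without the second HCT116 5-FU library (highest adjusted p 0.0806). With the first HCT116 5-FU library left out, 1 histone gene was called.

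Among the 82 genes that rose in HCT116 and fell in SW620, the 8 with the largest differences at a mean log2 CPM of at least 1 were CPAMD8, INPP5D, KRT80, HES2, PLXNB3, NRP2, BTG2 and HBEGF. INPP5D, an inositol polyphosphate 5-phosphatase (chr2:233059967-233207903), stood at 3.69 and 5.98 CPM in HCT116 under 5-FU, 49.1 and 45.6 under AFZC, 264 and 307 in SW620 under 5-FU and 180.5 and 174 under AFZC. Within each line the agents did not overlap, and HCT116 under AFZC remained below SW620 under either agent. The effects were 3.29 ± 0.21 in HCT116 and -0.69 ± 0.19 in SW620, and the difference was -3.98 ± 0.28 (adjusted p = 6.97e-05). KRT80, a type II keratin (chr12:52168996-52192000), stood at 7.44 and 7.22 CPM in HCT116 under 5-FU, 80.6 and 47.4 under AFZC, 439 and 542 in SW620 under 5-FU and 252 and 338 under AFZC and differed by -3.86 ± 0.35 (adjusted p = 0.000102). BTG2, an antiproliferative gene that damage can induce (chr1:203305491-203309602), stood at 43.8 and 43.5 CPM in HCT116 under 5-FU, 237 and 159 under AFZC, 123 and 119 in SW620 under 5-FU and 64.2 and 47.3 under AFZC. HCT116 AFZC libraries were the highest of BTG2 and both SW620 AFZC libraries fell to near the HCT116 5-FU level, with a difference of -3.30 ± 0.29 (adjusted p = 8.15e-05). The semaphorin receptors PLXNB3 and NRP2 moved alike. PLXNB3 stood at 3.37 and 3.20 CPM in HCT116 under 5-FU, 20.4 and 15.1 under AFZC, 42.8 and 43.6 in SW620 under 5-FU and 18.0 and 21.3 under AFZC and differed by -3.57 ± 0.30 (adjusted p = 7.28e-05). NRP2 stood at 1.30 and 2.08 CPM in HCT116 under 5-FU, 10.5 and 6.19 under AFZC, 256 and 355 in SW620 under 5-FU and 119 and 166 under AFZC and differed by -3.40 ± 0.42 (adjusted p = 0.000978).

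HBEGF, a ligand of the EGF receptor, stood at 6.08 and 6.63 CPM in HCT116 under 5-FU, 37.0 and 18.1 under AFZC, 122 and 137 in SW620 under 5-FU and 54.2 and 77.5 under AFZC. Its first HCT116 AFZC library lay well above the second, all groups were separate within a line, and the difference was -3.10 ± 0.42 (adjusted p = 0.00165). HES2, a basic helix-loop-helix repressor, stood at 24.2 and 24.7 CPM in HCT116 under 5-FU, 204 and 99.2 under AFZC, 37.9 and 36.0 in SW620 under 5-FU and 19.6 and 16.9 under AFZC and differed by -3.65 ± 0.38 (adjusted p = 0.000340). CPAMD8, of the complement and alpha-2-macroglobulin family, was near 0 in HCT116, with 17 and 90 pooled counts, a 5.05-fold ratio with an interval of 2.98 to 9.04 (95%, exact binomial), and differed by -3.98 ± 0.55 (adjusted p = 0.000987). Such intervals pool the libraries of a group and cover counting error only. Genes with 2 counts outnumbered genes with 1 count, by 1.68 to 1.84 times, a pattern that counting both mates can leave. How mates were counted is not stated, and the intervals are probably too narrow even for counting error. Further reversed genes of this direction, chosen after their values were seen, were the receptor kinase EPHA2 (-2.80), the membrane-binding ANXA2 (-1.93) with its partner S100A10 (-2.35), and KRT19 (-2.45). Cyclin D1 (CCND1) stood at 499 and 557 CPM in HCT116 under 5-FU, 1211 and 1046 under AFZC, 377 and 472 in SW620 under 5-FU and 170.5 and 288 under AFZC, and its effects of 1.09 ± 0.23 in HCT116 and -0.89 ± 0.23 in SW620 gave a difference of -1.98 ± 0.33 (adjusted p = 0.00304). FOSL1, an AP-1 subunit, differed by -2.53 ± 0.25 (adjusted p = 0.000114).

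Among the 53 genes that fell in HCT116 and rose in SW620, the 8 largest at a mean log2 CPM of at least 1 were CPS1, PDGFRL, GRID1, A2M, SLC22A31, BST2, CUBN and GSTM2. BST2, an interferon-inducible antiviral membrane protein (chr19:17402939-17405648), stood at 8.19 and 5.73 CPM in HCT116 under 5-FU, 2.46 and 2.33 under AFZC, 3.92 and 5.08 in SW620 under 5-FU and 30.9 and 13.5 under AFZC. Groups were separate within each line, with the first SW620 AFZC library above the second, and the difference was 3.83 ± 0.52 (adjusted p = 0.000958). A2M, a secreted protease inhibitor (chr12:9067664-9116229), stood at 16.1 and 15.7 CPM in HCT116 under 5-FU, 3.21 and 4.94 under AFZC, 2.51 and 2.05 in SW620 under 5-FU and 22.8 and 7.76 under AFZC and differed by 4.71 ± 0.62 (adjusted p = 0.00110). SLC22A31 stood at 75.4 and 81.5 CPM in HCT116 under 5-FU, 37.9 and 31.8 under AFZC, 0.585 and 0.725 in SW620 under 5-FU and 7.68 and 4.13 under AFZC, with a difference of 4.33 ± 0.40 (adjusted p = 0.000102). Even under AFZC, SW620 stayed far below HCT116 for this gene. CUBN, an endocytic receptor, stood at 4.44 and 5.90 CPM in HCT116 under 5-FU, 0.848 and 1.25 under AFZC, 1.07 and 0.725 in SW620 under 5-FU and 1.97 and 3.12 under AFZC and differed by 3.81 ± 0.60 (adjusted p = 0.00227).

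CPS1, the first enzyme of the urea cycle, was at 68.7 and 68.8 CPM in HCT116 under 5-FU and at 34.2 and 41.7 under AFZC. In SW620 it had 0 counts over the 5-FU libraries and 13 over the AFZC libraries, which was at least 3.77-fold higher (against a floor of 3 counts over the group). PDGFRL had 0 counts over the 5-FU libraries and 7 over the AFZC libraries, which was at least 2.03-fold higher in SW620, and GRID1, a delta-type glutamate receptor, had 1 and 19 pooled counts, a 16.6-fold ratio with an interval of 2.63 to 688. The SW620 levels of these genes were thus near the detection limit, and their differences of 6.54 ± 1.12 (adjusted p = 0.00452), 5.93 ± 1.41 (adjusted p = 0.0225) and 5.05 ± 0.87 (adjusted p = 0.00383) vary with the prior count, so they set no bound. GSTM2, a glutathione transferase with near-identical paralogs, differed by 3.57 ± 0.69 (adjusted p = 0.00686). For PDGFRL the call was lost without the first HCT116 5-FU library, either SW620 5-FU library or the first SW620 AFZC library (highest adjusted p 0.0926). SPARC, a secreted matrix protein, was also reversed and lay below that level limit, with a difference of 6.32 ± 0.81 (adjusted p = 0.000668) and 4 and 53 pooled counts, a 11.5-fold ratio with an interval of 4.25 to 43.9 in SW620 and a fall from 3.29 and 3.65 CPM to 0.557 and 0.388 in HCT116. The number of reversed genes rests on single libraries: it was 3 and 18 (SW620 higher and HCT116 higher) without the first HCT116 5-FU library, 8 and 24 without the second, 25 and 20 without the second SW620 5-FU library, 25 and 47 without the first, 16 and 48 without the first HCT116 AFZC library, 72 and 162 without the second, and 104 and 93 without the second SW620 AFZC library.

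**Figure D4:**
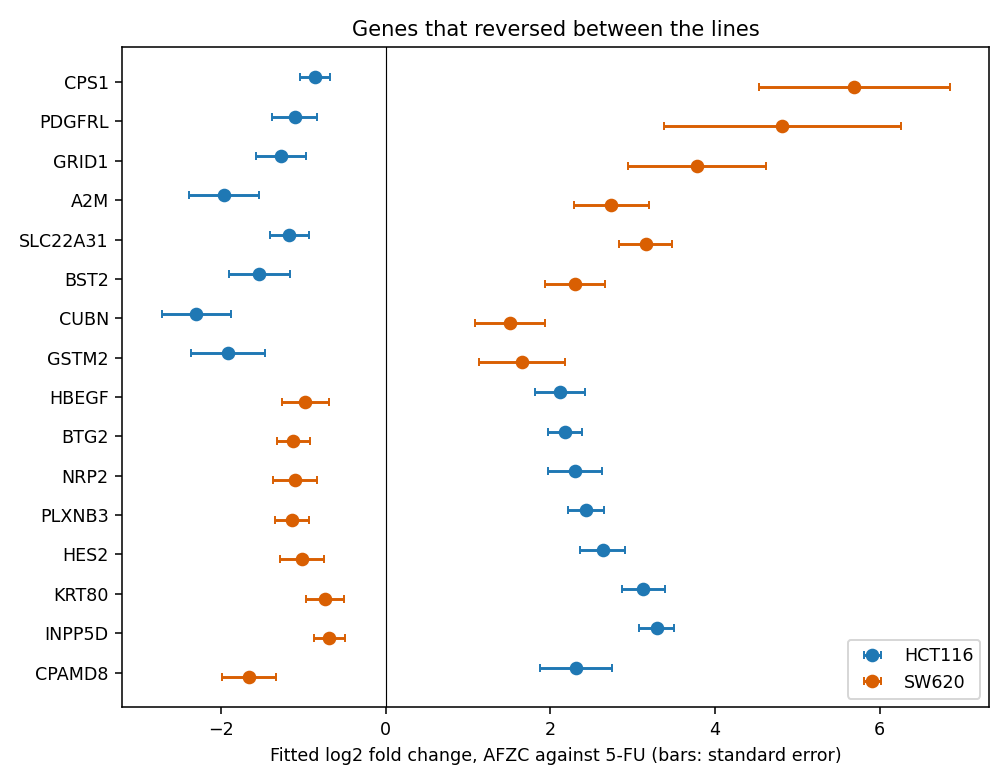
Fitted log2 fold change of AFZC against 5-FU with its standard error for the 16 named reversed genes, in HCT116 and in SW620. From CPS1 to GSTM2 the HCT116 effects lie left of 0 and the SW620 effects right of it, with the widest bars for CPS1 and PDGFRL, and from HBEGF to CPAMD8 the sides are exchanged.

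The largest fitted differences were of genes absent or nearly absent from 1 line under 5-FU. Of the 10 largest called in favour of SW620 at a mean log2 CPM of at least 1 and with separated libraries in a line, 9 are described, all at 0 counts in both SW620 5-FU libraries and present in HCT116. CD40, a costimulatory receptor, had 0 counts over the 5-FU libraries and 129 over the AFZC libraries, which was at least 37.5-fold higher, with 2.90 and 0.725 CPM in the SW620 AFZC libraries and 21.2 to 32.7 CPM in those of HCT116. DPYSL5, a neuronal phosphoprotein, had 0 counts over the 5-FU libraries and 68 over the AFZC libraries, which was at least 19.7-fold higher. HLA-DRA, the alpha chain of HLA-DR, had 0 counts over the 5-FU libraries and 63 over the AFZC libraries, which was at least 18.3-fold higher. CSTA, OLFML2B, P2RY1, EVL, SCARA3 and HEPH had 12 to 49 pooled AFZC counts and bounds of 3.48-fold to 14.2-fold. Among the genes at 0 in SW620 under 5-FU that the other line expresses at 20 CPM or more, CD40 under AFZC reached a mean of 6.7% of the level in HCT116, DPYSL5 3.86% and SCARA3 1.02%. For P2RY1 the call was lost without the first HCT116 5-FU library or the second SW620 5-FU library (highest adjusted p 0.0569), for HEPH without the first HCT116 5-FU library, the second SW620 5-FU library or the first SW620 AFZC library (highest adjusted p 0.129) and for SCARA3 without either HCT116 5-FU library, the first HCT116 AFZC library, either SW620 5-FU library or the second SW620 AFZC library and with cyclic loess (highest adjusted p 0.123).

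Under the same limits, the largest differences in favour of HCT116 that are described were of genes that SW620 expressed. KRT17, a stress keratin, stood at 0.0865 and 0.0561 CPM in HCT116 under 5-FU, 16.7 and 6.16 under AFZC, 63.0 and 121 in SW620 under 5-FU and 72.7 and 71.1 under AFZC. It rose in HCT116 from near 0 (5 and 853 pooled counts, a 163-fold ratio with an interval of 69.4 to 502), and the first AFZC library was the higher. The difference was -7.62 ± 0.97 (adjusted p = 0.00350). SYT8, a synaptotagmin, had 4 and 593 pooled counts, a 141-fold ratio with an interval of 54.9 to 520.4 in HCT116 and differed by -7.50 ± 0.73 (adjusted p = 0.000114). HS3ST6, a heparan sulfate sulfotransferase, had 0 counts over the 5-FU libraries and 149 over the AFZC libraries, which was at least 47.4-fold higher, NKX2-5, a homeobox factor, 0 counts over the 5-FU libraries and 41 over the AFZC libraries, which was at least 13.0-fold higher. KIAA1755, GNAO1 and ZNF841, also at 0 in HCT116 under 5-FU, had bounds of 7.63-fold, 9.85-fold and 5.40-fold. TXNIP and LUM, which SW620 expressed and HCT116 did not under 5-FU, stayed at 0 counts in both HCT116 AFZC libraries. For KRT17 the call was lost without the first SW620 AFZC library (highest adjusted p 0.0619), for HS3ST6 without either HCT116 5-FU library or the second SW620 5-FU library (highest adjusted p 0.0894) and for KIAA1755 without either HCT116 5-FU library (highest adjusted p 0.0787). For GNAO1 the call was lost without either HCT116 5-FU library, the first HCT116 AFZC library or the second SW620 5-FU library and with cyclic loess (highest adjusted p 0.140) and for ZNF841 without either HCT116 5-FU library (highest adjusted p 0.0609).

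A few genes moved the same way in both lines by unequal amounts. SRPX2, a secreted sushi-repeat protein, stood at 2.13 and 2.75 CPM in HCT116 under 5-FU, 11.4 and 9.57 under AFZC, 0.172 and 0.181 in SW620 under 5-FU and 14.9 and 6.64 under AFZC. Every AFZC library was above its 5-FU pair, and the rise was larger in SW620, with a difference of 3.80 ± 0.64 (adjusted p = 0.00331). CTSV, a cysteine protease, differed by 2.54 ± 0.38 (adjusted p = 0.00169), and EOMES, a T-box factor, by 3.06 ± 0.71 (adjusted p = 0.0175). In the other direction PTAFR, the receptor of platelet-activating factor, stood at 4.90 and 6.04 CPM in HCT116 under 5-FU, 109.7 and 50.6 under AFZC, 10.4 and 10.8 in SW620 under 5-FU and 34.3 and 27.0 under AFZC. Its rise was larger in HCT116, with a difference of -2.34 ± 0.43 (adjusted p = 0.00705). PLA2G4D, a phospholipase A2, differed by -2.83 ± 0.60 (adjusted p = 0.0124), and RIMS4 by -3.84 ± 1.03 (adjusted p = 0.0339). For EOMES the call was lost without either HCT116 5-FU library or either SW620 5-FU library and with cyclic loess (highest adjusted p 0.0756) and for PTAFR without the first HCT116 5-FU library (highest adjusted p 0.0522). For PLA2G4D the call was lost without either HCT116 5-FU library (highest adjusted p 0.0769) and for RIMS4 without the second HCT116 5-FU library, the first HCT116 AFZC library, either SW620 5-FU library or the second SW620 AFZC library (highest adjusted p 0.123).

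Among apoptosis regulators, called members on both sides of cell death stood lower in SW620. Of 29 tested members 10 were called lower and 1 higher (4.14% and 5.65% over all genes tested). The median was -0.37 on the log2 scale (0.44 in HCT116, 0.13 in SW620). The list shares BBC3, TNFRSF10B, BAX and FAS with the damage-inducible list. BBC3 (PUMA), which triggers mitochondrial death, stood at 54.2 and 43.0 CPM in HCT116 under 5-FU, 89.4 and 75.6 under AFZC, 65.1 and 95.7 in SW620 under 5-FU and 28.1 and 29.96 under AFZC. It was reversed, with groups apart in each line and a difference of -2.23 ± 0.28 (adjusted p = 0.000561). The TRAIL receptors TNFRSF10A and TNFRSF10B were reversed too, with differences of -2.13 ± 0.27 (adjusted p = 0.000666) and -2.06 ± 0.24 (adjusted p = 0.000424). BCL2L1 (-1.15), MCL1 (-1.01) and CFLAR (-0.84), which restrain death, were also lower in SW620. CASP10, an initiator caspase, was the exception, at 6.11 and 6.79 CPM in HCT116 under 5-FU, 13.0 and 10.3 under AFZC, 0.413 and 0.816 in SW620 under 5-FU and 7.32 and 5.97 under AFZC. Its rise was called in SW620 only, with a difference of 2.56 ± 0.47 (adjusted p = 0.00528). The count of members called lower ran from 5 without the second HCT116 5-FU library to 11, and with library sizes only it was 6.

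The called immediate early genes and most called WNT targets were lower in SW620. Over all genes tested 4.14% were called lower and 5.65% higher. Of 32 immediate early and AP-1 genes 5 were called lower in SW620 and 0 higher, with a median of -0.88 on the log2 scale (0.36 in HCT116, -0.63 in SW620), and the count ran from 3 without the first HCT116 5-FU library to 20 without the second HCT116 AFZC library. HBEGF and FOSL1, described above, had the largest called differences of the list. DUSP4, a MAP kinase phosphatase, stood at 388 and 413 CPM in HCT116 under 5-FU, 511 and 368 under AFZC, 278 and 325 in SW620 under 5-FU and 113 and 139 under AFZC and differed by -1.39 ± 0.27 (adjusted p = 0.00696). Of 21 WNT target and crypt genes 6 were lower and 2 higher, with a median of -0.73 on the log2 scale (0.15 in HCT116, -0.23 in SW620). CCND1 led those lower and the rest were EPHB3, NKD1, NOTUM, SOX9 and ZNRF3, from -1.45 to -0.86. CD44, an adhesion receptor, stood at 838 and 874 CPM in HCT116 under 5-FU, 763 and 731 under AFZC, 5.06 and 10.2 in SW620 under 5-FU and 24.9 and 36.9 under AFZC. It rose in SW620 and remained far below HCT116, with a difference of 2.20 ± 0.39 (adjusted p = 0.00514). TNFRSF19 differed by 2.83 ± 0.49 (adjusted p = 0.00383). The WNT median was -0.43 with genes at 0 counts in a group set to their bound, -0.35 without the second HCT116 AFZC library and -0.28 with cyclic loess. The immediate early median was -0.29 without the first HCT116 AFZC library. Without the first HCT116 5-FU library 1 WNT target was called lower, and with cyclic loess 3 were.

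Of 21 tested genes of keratins and the cornified envelope (29 listed), 12 rose in HCT116 and 2 in SW620. The difference was called lower in SW620 for 8 and higher for 0 (4.14% and 5.65% over all genes tested). The median was -2.93 on the log2 scale (3.40 in HCT116, 0.22 in SW620), or -2.43 with genes at 0 counts in a group set to their bound. KRT7 stood at 13.7 and 9.29 CPM in HCT116 under 5-FU, 152 and 82.6 under AFZC, 31.9 and 46.8 in SW620 under 5-FU and 30.03 and 60.1 under AFZC and differed by -3.16 ± 0.59 (adjusted p = 0.0150). KRT16, which like KRT17 has near-identical copies, had 6 and 170 pooled counts, a 27.0-fold ratio with an interval of 12.2 to 74.6 in HCT116 and stood at 18.9 and 31.6 CPM in SW620 under 5-FU and 5.91 and 14.4 under AFZC. HRNR, of the cornified envelope, had 2 and 389 pooled counts, a 185-fold ratio with an interval of 51.0 to 1536 in HCT116. The first HCT116 AFZC library was the higher for each of these genes. Not every member leaned to HCT116, as 5 had a positive difference, up to 2.80, without a call. KRT6B had 9 and 508 pooled counts in SW620, a 49.2-fold ratio with an interval of 25.7 to 108. In HCT116 it had 2 and 16, a 7.63-fold ratio with an interval of 1.79 to 68.4. KRT14 stood 6.97-fold higher by pooled counts in SW620 (3.33 to 16.8) and 1.21-fold higher in HCT116 (0.581 to 2.55). Leaving out a library gave 5 to 8 members called lower. Among 26 tested intestinal markers (33 listed) 4 were lower and 1 higher, and the median difference of -0.00 was 0.37 with library sizes only and -0.24 with cyclic loess. MUC2, the mucin of goblet cells, stood at 0.0576 and 0.0561 CPM in HCT116 under 5-FU, 6.68 and 2.05 under AFZC, 12.8 and 18.1 in SW620 under 5-FU and 29.5 and 17.6 under AFZC, with 4 and 326 pooled counts, a 77.7-fold ratio with an interval of 30.1 to 287 in HCT116. VIL1 (villin) had 4 and 102 pooled counts, a 24.3-fold ratio with an interval of 9.21 to 90.9 in HCT116 and 412 and 373 CPM in SW620 under 5-FU. KRT20, which marks differentiated surface cells, was the member higher in SW620, with a difference of 3.57 ± 0.58 (adjusted p = 0.00289). For MUC2 the call was lost without the first HCT116 5-FU library (highest adjusted p 0.0507).

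Matrix genes split. Of 21 genes of the mesenchymal and matrix list 4 were called higher in SW620 and 2 lower (5.65% and 4.14% over all genes tested). The median of -0.11 became 0.25 with library sizes only. Fibronectin (FN1, chr2:215360440-215436172) stood at 48.7 and 61.4 CPM in HCT116 under 5-FU, 44.8 and 33.7 under AFZC, 4.54 and 5.50 in SW620 under 5-FU and 38.2 and 31.4 under AFZC. SW620 libraries rose well clear of their 5-FU pair, and the difference was 3.28 ± 0.29 (adjusted p = 0.000102). LOXL2, a collagen crosslinking oxidase, differed by 3.16 ± 0.44 (adjusted p = 0.00148), and VIM (vimentin), which fell in HCT116, by 2.70 ± 0.48 (adjusted p = 0.00480). TGFBI, a matrix protein, had 8 and 62 pooled counts, a 7.39-fold ratio with an interval of 3.53 to 17.9 in HCT116 and differed by -3.67 ± 0.72 (adjusted p = 0.0106). Fibroblast markers, of which 5 of 11 were tested, summed to 45.0 to 60.3 CPM in HCT116, 53.5 to 58.3 in SW620 under 5-FU and 76.3 to 92.6 under AFZC, and their part in these results was not tested.

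Immune genes with a called difference mostly stood higher in SW620. For NF-kB signalling and cytokines 5 of 23 tested members were called higher and 0 lower (5.65% and 4.14% over all genes tested). The median was 0.63 on the log2 scale (0.53 in HCT116, 1.97 in SW620). ICAM1, an adhesion molecule, differed by 2.50 ± 0.39 (adjusted p = 0.00227), and TRAF1, a signalling adaptor, by 2.10 ± 0.37 (adjusted p = 0.00456). IL32, a cytokine, stood at 0.663 and 0.421 CPM in HCT116 under 5-FU, 0.663 and 0.166 under AFZC, 5.54 and 10.6 in SW620 under 5-FU and 60.4 and 86.0 under AFZC. HCT116 libraries were near the detection limit and overlapped, SW620 libraries rose apart, and the difference was 3.54 ± 0.74 (adjusted p = 0.0149). CXCL2, a neutrophil chemokine, differed by 3.48 ± 0.96 (adjusted p = 0.0405), and LTB, lymphotoxin beta, by 4.18 ± 0.95 (adjusted p = 0.0166). TNFAIP3, an inhibitor of this pathway, had no call in either line and a difference of -0.46 ± 0.75 (adjusted p = 0.782). For IL32 the call was lost without the first HCT116 5-FU library (highest adjusted p 0.120), for CXCL2 without either HCT116 5-FU library, the second HCT116 AFZC library, either SW620 5-FU library or the second SW620 AFZC library and with cyclic loess (highest adjusted p 0.182) and for LTB without the first HCT116 5-FU library, the second SW620 5-FU library or the first SW620 AFZC library (highest adjusted p 0.234). The median difference of the list was 1.58 without the first HCT116 AFZC library and 0.32 without the second. Without the first HCT116 5-FU library 2 members were called higher, and without the second HCT116 AFZC library 3 were called lower.

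Of 29 interferon-stimulated genes 6 were called higher in SW620 and 0 lower (5.65% and 4.14% over all genes tested). The median was 0.68 on the log2 scale (0.33 in HCT116, 1.14 in SW620). BST2 is described above. IFIT1, which binds foreign RNA, stood at 9.89 and 8.39 CPM in HCT116 under 5-FU, 12 and 9.49 under AFZC, 0.379 and 0.362 in SW620 under 5-FU and 8.11 and 2.06 under AFZC. It rose in SW620, the first library above the second and both below HCT116, and the difference was 3.54 ± 0.76 (adjusted p = 0.0146). IFITM1, which has near-identical relatives, had 4 and 147 pooled counts, a 32-fold ratio with an interval of 12.2 to 119 in SW620 and differed by 6.16 ± 1.05 (adjusted p = 0.00363). ISG15, an interferon-induced ubiquitin-like protein, and OAS1 went the other way without a call, at -2.39 and -1.23. Of 21 antigen presentation genes 6 were higher and 1, the peptide transporter TAP1, lower, with a median of 0.57 on the log2 scale (-0.09 in HCT116, 0.56 in SW620). CD74, the invariant chain of class II, stood at 2.36 and 2.30 CPM in HCT116 under 5-FU, 1.85 and 1.25 under AFZC, 0.275 and 0.211 in SW620 under 5-FU and 15 and 3.21 under AFZC. Both SW620 AFZC libraries exceeded all others, the first well above the second. The difference for CD74 was 5.80 ± 0.93 (adjusted p = 0.00335), and PSMB9, of the immunoproteasome, differed by 1.99 ± 0.44 (adjusted p = 0.0136).

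Summed leukocyte markers were 2.25 to 3.10 CPM in HCT116, 7.43 to 10.1 in SW620 under 5-FU and 26.9 to 51.5 under AFZC, with 1 of 8 tested called higher in SW620. CSF1R was the member called. LYZ made up most of the counts in SW620, 4 to 6 of the 15 were at 0 in an HCT116 AFZC library, 5 in each SW620 AFZC library, and PTPRC was at 0 in both SW620 AFZC libraries. For IFIT1 the call was lost without the first HCT116 5-FU library or either SW620 5-FU library (highest adjusted p 0.0959) and for HLA-DMB without either HCT116 5-FU library, either HCT116 AFZC library, either SW620 5-FU library or the first SW620 AFZC library and with cyclic loess (highest adjusted p 0.137). HLA-DMB, which loads class II molecules, had a difference of 2.14 ± 0.59 (adjusted p = 0.0378). The medians of the interferon-stimulated and antigen presentation lists were 0.41 and 0.31 without the first SW620 AFZC library. Without the first HCT116 5-FU library 3 interferon-stimulated and 2 antigen presentation genes were called higher, and without the second HCT116 AFZC library 4 interferon-stimulated genes were called lower.

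The series title names peroxidative death. Most genes that guard against lipid peroxidation had no called difference between the lines, which also holds for most genes tested. A missing call does not show equal effects, as 23% of 2-fold changes were recovered on simulated counts. GPX4, which reduces lipid hydroperoxides, stood at 224 and 182 CPM in HCT116 under 5-FU, 191 and 156 under AFZC, 242 and 273 in SW620 under 5-FU and 188 and 189 under AFZC. HCT116 libraries overlapped between agents, both SW620 AFZC libraries lay below their 5-FU pair without a call, and the difference was -0.22 ± 0.24 (adjusted p = 0.625). SLC7A11, the cystine importer, stood at 32.4 and 38.9 CPM in HCT116 under 5-FU, 10.8 and 19.0 under AFZC, 180.5 and 159 in SW620 under 5-FU and 43.7 and 118 under AFZC, with pairs far apart in both lines under AFZC and a difference of 0.19 ± 0.62 (adjusted p = 0.915). ACSL4, which activates polyunsaturated fatty acids, differed by -0.32 ± 0.25 (adjusted p = 0.473). HMOX1, the heme oxygenase, rose in both lines (1.10 ± 0.24 in HCT116 and 0.98 ± 0.25 in SW620), with a difference of -0.13 ± 0.35 (adjusted p = 0.890). Of 28 suppressors of ferroptosis 0 were called higher in SW620 and 3 lower, against 5.65% and 4.14% of all genes tested. Of those 3 lower, 2 are described here. AIFM2 (FSP1), which regenerates ubiquinol, stood at 29.3 and 29.9 CPM in HCT116 under 5-FU, 62.4 and 58.0 under AFZC, 146 and 166 in SW620 under 5-FU and 102 and 102 under AFZC. It was reversed, and the difference was -1.64 ± 0.20 (adjusted p = 0.000524). COQ10B, a coenzyme Q binding protein, differed by -1.03 ± 0.23 (adjusted p = 0.0153). Of 24 drivers 2 were higher, DPP4 (2.53) and the lipoxygenase ALOX15B (3.69), and 2 lower, GLS2 and NCOA4. GLS2, a glutaminase, stood at 0 in each library CPM in HCT116 under 5-FU, 0.212 and 0.194 under AFZC, 2.31 and 1.93 in SW620 under 5-FU and 3.04 and 3.63 under AFZC. Its difference was -5.19 ± 1.39 (adjusted p = 0.0362). NCOA4, the receptor for ferritin breakdown, was reversed, with a difference of -1.04 ± 0.20 (adjusted p = 0.00738). The median difference was -0.22 for suppressors and -0.14 for drivers, and 0.15 and 0.21 with library sizes only. For GLS2 the call was lost without either HCT116 5-FU library, the first HCT116 AFZC library, either SW620 5-FU library or the first SW620 AFZC library and with cyclic loess (highest adjusted p 0.138). For COQ10B the call was lost without either HCT116 5-FU library or the second SW620 5-FU library and with library sizes only (highest adjusted p 0.0848), for ALOX15B without either HCT116 5-FU library (highest adjusted p 0.0677) and for DPP4 without the first HCT116 5-FU library (highest adjusted p 0.0516).

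The called chaperone genes and most called antioxidant genes were lower in SW620. Among all genes tested 4.14% were called lower and 5.65% higher. Of 22 heat shock genes 7 were called lower and 0 higher, with a median of -0.58 on the log2 scale (0.12 in HCT116, -0.28 in SW620). HSPA4L, an Hsp110 chaperone, stood at 38.1 and 40.2 CPM in HCT116 under 5-FU, 142 and 139 under AFZC, 46.1 and 40.3 in SW620 under 5-FU and 49.1 and 39.8 under AFZC. It rose in HCT116 alone, with a difference of -1.80 ± 0.22 (adjusted p = 0.000520). DNAJB1, an Hsp40, differed by -1.43 ± 0.33 (adjusted p = 0.0173). Of 28 NRF2 targets 6 were lower and 1 higher, with a median of -0.52 on the log2 scale (-0.01 in HCT116, -0.49 in SW620). TXN, thioredoxin, stood at 170.3 and 129.9 CPM in HCT116 under 5-FU, 167 and 154 under AFZC, 265 and 288 in SW620 under 5-FU and 145 and 159 under AFZC and differed by -0.96 ± 0.23 (adjusted p = 0.0224). AKR1C3 differed by -1.11 ± 0.28 (adjusted p = 0.0251) and AKR1C1 by 1.31 ± 0.35 (adjusted p = 0.0327), in opposite directions, and these aldo-keto reductases share near-identical sequence. For DNAJB1 the call was lost without either HCT116 5-FU library or the second SW620 5-FU library and with cyclic loess (highest adjusted p 0.0864), for TXN without the second HCT116 5-FU library, the first HCT116 AFZC library, the second SW620 5-FU library or the first SW620 AFZC library and with library sizes only or cyclic loess (highest adjusted p 0.111) and for AKR1C3 without the second HCT116 5-FU library, the first HCT116 AFZC library or the first SW620 5-FU library and with library sizes only (highest adjusted p 0.129). For AKR1C1 the call was lost without the first HCT116 5-FU library, either HCT116 AFZC library, either SW620 5-FU library or the first SW620 AFZC library and with cyclic loess (highest adjusted p 0.150). With library sizes only 2 heat shock genes and 0 NRF2 targets were called lower, and without the first HCT116 5-FU library 1 heat shock gene was.

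Of 31 genes of the integrated stress response 3 were lower and 0 higher, with a median of -0.69 on the log2 scale (0.10 in HCT116, -0.39 in SW620), and without the second SW620 AFZC library 14 were lower at a median of -1.13. Without the first that median was -0.29. SLC7A5, an amino acid transporter, stood at 296 and 308 CPM in HCT116 under 5-FU, 512 and 498 under AFZC, 345 and 385 in SW620 under 5-FU and 122 and 219.7 under AFZC. AFZC libraries lay above 5-FU in HCT116, without a call, and below it in SW620, with one, and the difference was -1.83 ± 0.32 (adjusted p = 0.00405). SESN2, a sestrin that is also in the damage-inducible list, differed by -1.41 ± 0.21 (adjusted p = 0.00186). Of 19 metallothionein and zinc transport genes tested (23 listed) 2 were higher and 1 lower, and the median of -0.03 was 0.32 with library sizes only. For this list and the stress response, the shares over all genes tested are 5.65% higher and 4.14% lower. SLC30A1, the zinc exporter of the plasma membrane, stood at 38.2 and 51.1 CPM in HCT116 under 5-FU, 114 and 109 under AFZC, 88.8 and 118 in SW620 under 5-FU and 81.3 and 62.4 under AFZC and differed by -1.84 ± 0.27 (adjusted p = 0.00164). SLC39A8, a zinc and manganese importer, was reversed, at 64.5 and 60.9 CPM in HCT116 under 5-FU, 34.5 and 36.6 under AFZC, 9.16 and 7.73 in SW620 under 5-FU and 14.4 and 14.2 under AFZC. Its difference was 1.58 ± 0.24 (adjusted p = 0.00173). MT2A, a metallothionein, stood at 319 and 366 CPM in HCT116 under 5-FU, 678 and 442 under AFZC, 59.0 and 147 in SW620 under 5-FU and 101 and 219.6 under AFZC, with a difference of -0.07 ± 0.68 (adjusted p = 0.999). MT1F, which has near-identical copies, differed by 2.65 ± 0.54 (adjusted p = 0.00902). Copper handling and lipoylation had 0 and 0 called of 20, with a median of -0.16 that was 0.19 with library sizes only. At an unadjusted p under 0.05 edgeR gave 2 copper genes in each direction, and DESeq2 called 0. For MT1F the call was lost without the first HCT116 5-FU library (highest adjusted p 0.0546) and for MTHFD2 without either HCT116 5-FU library or the second SW620 5-FU library and with library sizes only or cyclic loess (highest adjusted p 0.0892).

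The few called sterol, sugar and lysosomal genes were mostly lower in SW620. Over all genes tested 4.14% were called lower and 5.65% higher. The shares of these lists called lower were above that of all genes, but depended on the settings given below. Of 27 genes of cholesterol and fatty acid synthesis 4 were lower and 0 higher, with a median of -0.47 on the log2 scale (-0.03 in HCT116, -0.55 in SW620). FDFT1, squalene synthase, differed by -1.02 ± 0.29 (adjusted p = 0.0428) and MSMO1, a sterol oxidase, by -1.16 ± 0.32 (adjusted p = 0.0400). Of 27 glycolysis and hypoxia genes 2 were lower and 1 higher, with a median of -0.10 that was 0.25 with library sizes only. SLC2A1 (GLUT1) stood at 472 and 492 CPM in HCT116 under 5-FU, 614 and 544 under AFZC, 2006 and 2114 in SW620 under 5-FU and 614 and 1071 under AFZC and differed by -1.55 ± 0.33 (adjusted p = 0.0106). ADM, adrenomedullin, differed by 1.23 ± 0.25 (adjusted p = 0.00999). Of 26 lysosome and autophagy genes 4 were lower and 1 higher, with a median of -0.08 that was 0.27 with library sizes only. ULK1, the kinase that starts autophagy, differed by -0.97 ± 0.22 (adjusted p = 0.0168) and CTSL, cathepsin L, by 1.11 ± 0.27 (adjusted p = 0.0245). Of the lysosome and autophagy genes 0 were called lower with library sizes only or without the first HCT116 5-FU library. Without that library 1 sterol gene and 0 glycolysis genes were called lower, with library sizes only 1 sterol gene was, and with cyclic loess 0 glycolysis genes were. Without the second HCT116 AFZC library the sterol median was -0.18. For MSMO1 the call was lost without either HCT116 5-FU library, either HCT116 AFZC library, the second SW620 5-FU library or the second SW620 AFZC library and with library sizes only or cyclic loess (highest adjusted p 0.189) and for SLC2A1 without either HCT116 5-FU library and with cyclic loess (highest adjusted p 0.0654). For ADM the call was lost without the first HCT116 5-FU library (highest adjusted p 0.0546), for ULK1 without either HCT116 5-FU library, the first HCT116 AFZC library or the second SW620 5-FU library and with library sizes only or cyclic loess (highest adjusted p 0.0920) and for CTSL without the first HCT116 5-FU library or either SW620 5-FU library and with cyclic loess (highest adjusted p 0.139).

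Cytosolic ribosomal protein genes fell in both lines and showed no called difference. Of 49 members 42 fell in HCT116 and 49 in SW620, the difference was called for 0 higher and 0 lower, and its median was -0.22 on the log2 scale (-0.84 in HCT116, -1.11 in SW620). That median was 0.14 with library sizes only and 0.40 with cyclic loess, and with cyclic loess 42 members fell in HCT116 and 14 in SW620. At an unadjusted p under 0.05 edgeR gave 0 members higher and 1 lower, and DESeq2 and limma called 0. RPL3, of the large subunit (chr22:39312882-39320389), stood at 3830.0 and 3161 CPM in HCT116 under 5-FU, 818 and 993 under AFZC, 3297 and 3837 in SW620 under 5-FU and 642 and 1290.0 under AFZC. Both lines fell clear of 5-FU, and the difference was 0.06 ± 0.39 (adjusted p = 0.976). Of 19 translation factors 3 were lower and 0 higher (4.14% and 5.65% over all genes tested), with a median of -0.41. That direction depends on the scaling, as with cyclic loess 1 was lower and 3 higher, at a median of 0.34. EEF1D, an elongation factor subunit, rose in HCT116 and differed by -1.16 ± 0.20 (adjusted p = 0.00350), EIF4A2, an RNA helicase of initiation, by -1.16 ± 0.24 (adjusted p = 0.00990). Of 27 ribosome biogenesis genes 2 were lower and 0 higher, with a median of -0.34 (0.01 with library sizes only). The nucleolar helicase DDX21 differed by -1.26 ± 0.25 (adjusted p = 0.00850) and RRP12 by -1.22 ± 0.30 (adjusted p = 0.0241).

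Mitochondrial ribosomal proteins had 0 higher and 0 lower of 28, with a median of -0.11 (0.24 with library sizes only), 0 higher and 1 lower at an unadjusted p under 0.05 in edgeR, and 0 called by DESeq2. Of 31 nuclear respiratory chain subunits 1, SDHB of complex II, was lower, at -0.84 ± 0.22 (adjusted p = 0.0292), and the median of -0.26 was 0.10 with library sizes only. The mRNAs that mitochondria encode differed more. Of 13 members 5 were lower in SW620 and 0 higher (4.14% and 5.65% over all genes tested). The median was -0.87 on the log2 scale (0.17 in HCT116, -0.60 in SW620), and 6 fell in SW620. MT-ND4, a subunit of complex I, stood at 10900.0 and 10780.0 CPM in HCT116 under 5-FU, 13930.0 and 11550.0 under AFZC, 8837 and 8961 in SW620 under 5-FU and 5311 and 4082 under AFZC. SW620 AFZC libraries were the lowest of all, and the difference was -1.16 ± 0.30 (adjusted p = 0.0318). MT-ND4L differed by -1.38 ± 0.29 (adjusted p = 0.0110) and MT-ATP8 by -1.45 ± 0.33 (adjusted p = 0.0167). Without the first HCT116 5-FU library 0 of these mRNAs were called, and with cyclic loess, which removes a trend with abundance, 1 was called, the median difference was -0.03 and the SW620 median turned from -0.60 to 0.38. For MT-ND4 the call was lost without either HCT116 5-FU library, the first HCT116 AFZC library, either SW620 5-FU library or the second SW620 AFZC library and with library sizes only or cyclic loess (highest adjusted p 0.847), for MT-ND4L without the first HCT116 5-FU library and with cyclic loess (highest adjusted p 0.126) and for MT-ATP8 without either HCT116 5-FU library or the second SW620 5-FU library (highest adjusted p 0.0959). For SDHB the call was lost without either HCT116 5-FU library, the first HCT116 AFZC library, either SW620 5-FU library or the first SW620 AFZC library and with library sizes only or cyclic loess (highest adjusted p 0.148). For EIF4A2 the call was lost without the second HCT116 5-FU library or the second SW620 5-FU library and with cyclic loess (highest adjusted p 0.0959), for DDX21 without the first HCT116 5-FU library and with cyclic loess (highest adjusted p 0.0605) and for RRP12 without either HCT116 5-FU library, the first HCT116 AFZC library or either SW620 5-FU library and with library sizes only (highest adjusted p 0.112).

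**Figure D5:**
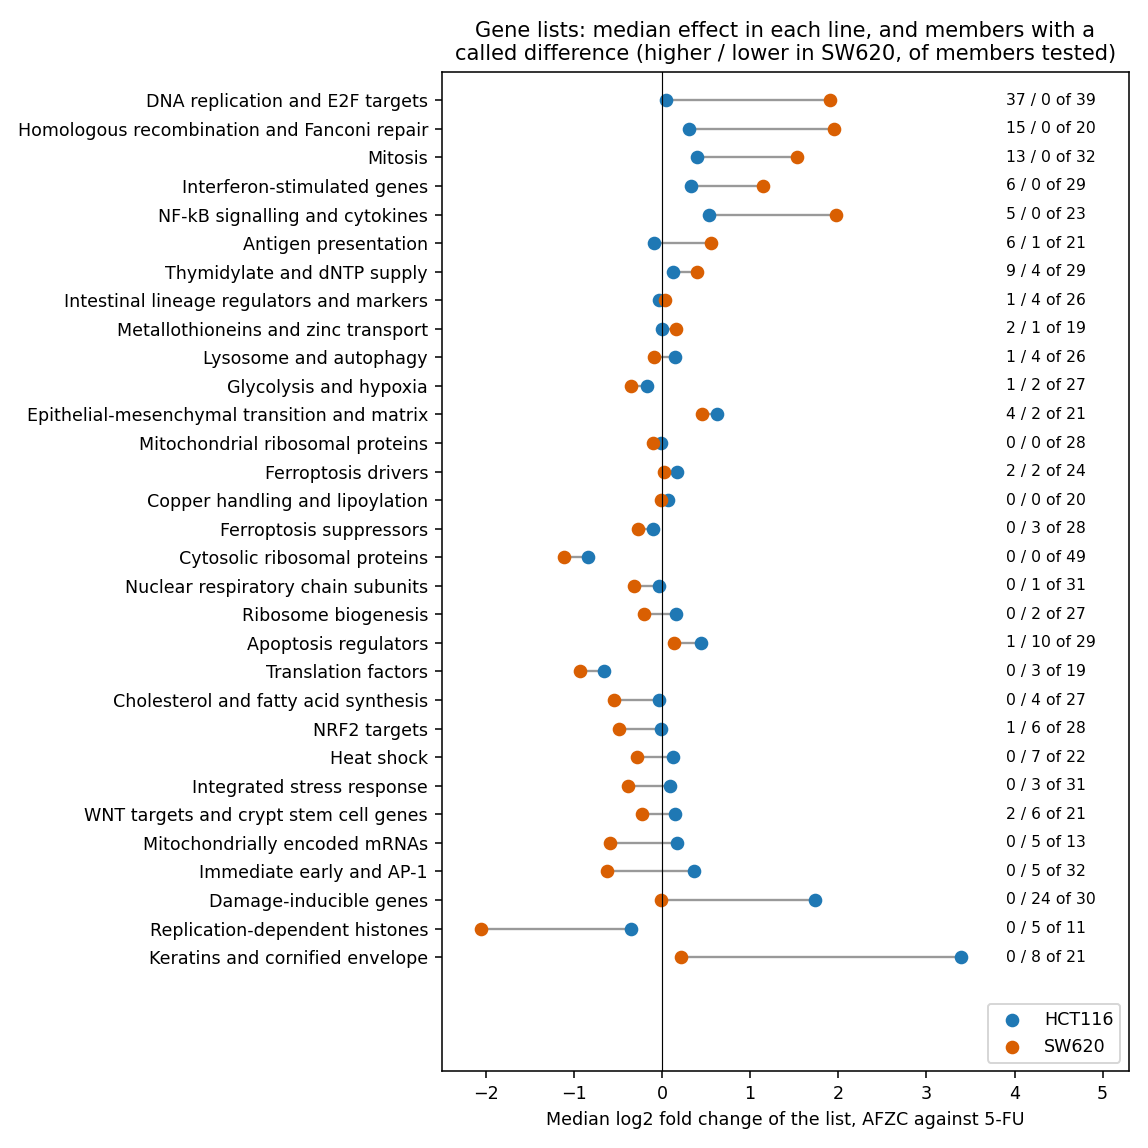
Median log2 fold change of AFZC against 5-FU for 31 gene lists in HCT116 and SW620, ordered by the median difference, with the number of members called higher and lower in SW620 of those tested at the right. Replication, recombination and mitosis genes lie far to the right in SW620 and at medians of 0.05 to 0.40 in HCT116. Damage-inducible genes and the keratin and cornified envelope list lie to the right mainly in HCT116, and ribosomal protein genes to the left in both lines.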

How the data were processed

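RNA-seq libraries were oligo(dT)-selected and not strand-specific, per the labels' protocols, and the authors deposited 1 table of raw read counts per gene (57169 rows). Per the submitters' processing notes the build was GRCh38 and the tools named, without role or order, were STAR and HISAT2, featureCounts, Trimmomatic and cutadapt, FastQC, edgeR and DESeq2. In the table, 27 symbols had been turned into dates and were restored by position, and 57003 rows had the symbol and position of GENCODE 29. Reads that fit a gene and an overlapping or near-identical gene (KRT16 and KRT17, HLA, histone, metallothionein, AKR1C, IFITM and GSTM genes) could be split or lost in counting, so those values are uncertain.

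Counts were fitted with edgeR 4.0.16 in R 4.3.3 (TMM factors, filterByExpr with a minimum count of 10, robust quasi-likelihood fit) as 4 group means over all 8 libraries, which leaves 21378 genes. The contrast was the SW620 effect minus the HCT116 effect, with Benjamini-Hochberg adjustment over all genes tested and a threshold of 0.05. Standard errors are the log2 value divided by the square root of the F statistic. Alternatives were DESeq2-style size factors, library sizes only, no filter or a minimum count of 50, DESeq2 1.42.0, cyclic loess with limma 3.58.1, a replicate block, leaving out each library, and a threshold of 0.01. On simulated counts for this contrast (20720 genes, 200 changed) edgeR recovered 23% of 2-fold and 74% of 4-fold changes, with 7.62% false calls. The changed genes were drawn from those with a mean expected count over 50 and were changed in SW620 under AFZC only. Recovery at lower counts was not tried. Depth of 31991561 to 40590291 counts limits genes near 0 counts. For these, pooled counts were compared with a floor of 3 counts over the group, or with 95% exact binomial intervals, which cover counting error only.

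Members and gene lists were chosen with earlier results of these data known. The rule for single genes took, at a mean log2 CPM of at least 1 and leaving out clone and antisense names, the 10 largest differences each way with separated libraries in a line, the 8 largest reversed and the 4 largest same-direction genes each way, the 3 largest called members of each of 31 lists, and 12 fixed genes. Not every gene the rule picks is described. Genes described beside it, such as MCM6, MCM7, PCNA, E2F1, E2F7, ESPL1, KIF23, FAS, TK1, RRM2, EPHA2, ANXA2, S100A10, KRT19, CASP10, CD44, TNFAIP3, ISG15, OAS1, KRT20, TXNIP and LUM, were chosen after their values were seen and, unless the rule also took them, were not tried singly under the alternatives. Markers of epithelium, leukocytes, fibroblasts, endothelium and erythroid cells were counted too; of the last 2 lists 1 of 5 and 0 of 1 tested genes were called higher in SW620, and 0 lower.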

Additional observations from a re-analysis of the deposited data

Results flagged for a closer look

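For 16 genes the AFZC effect went opposite ways in the lines, with a called effect in each and a called difference between them. On the log2 scale, SW620 minus HCT116, the difference was 6.54 for CPS1, 5.93 for PDGFRL, 5.05 for GRID1, 4.71 for A2M, 4.33 for SLC22A31, 3.83 for BST2, 3.81 for CUBN and 3.57 for GSTM2. It was -3.98 for CPAMD8, -3.98 for INPP5D, -3.86 for KRT80, -3.65 for HES2, -3.57 for PLXNB3, -3.40 for NRP2, -3.30 for BTG2 and -3.10 for HBEGF. These are the 8 largest reversed genes in each direction that the naming rule took, out of 53 and 82, so the sizes are at the extreme by choice. CPS1, PDGFRL and GRID1 had at most 1 pooled count in SW620 under 5-FU, and their values depend on the prior count. What lies behind the opposite signs was not tested. Groups of 2 libraries are too small to look for a library that stands apart.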

How the results depend on the processing

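Genes called higher and lower in SW620 numbered 1207 and 884, and reversed genes 53 (SW620 higher) and 82 (SW620 lower). With library sizes only these became 2455, 430, 97 and 31, without a filter on low counts 1848 higher with 122 and 178 reversed, with DESeq2 96 and 130 reversed, with cyclic loess 53 reversed with SW620 lower, and at a threshold of 0.01 they were 444, 288, 9 and 13. The last follows from the stricter threshold, and for the others the cause was not tested. Leaving out a library gave 478 to 1521 higher, 279 to 1112 lower, 3 to 104 reversed with SW620 higher and 18 to 162 reversed with SW620 lower, where the lone library of a group is assumed to vary like the others. Of 126 genes taken by the naming rule 119 were called, 68 of these in every one of 16 settings, and 0 of the called genes changed sign in any setting. Of those without a call, ACSL4, GPX4, HMOX1, MT2A, RPL3 and SLC7A11 had values on both sides of 0 over the settings. Single-gene values stayed on their side of the threshold in 1773 cases, lost the call in 234 and gained one in 7.

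Replicate numbers showed no clear pairing: deviations of same-numbered libraries correlated at -0.267 to 0.153 over 16298 genes for the 6 pairs of groups. With 2 libraries per group such a check cannot settle whether libraries were paired. With the replicate block common to both lines 1064 and 767 genes were called, with 47 and 67 reversed, and with the block within line 1172 and 884, with 56 and 100 reversed. The common block ended the calls of CXCL2 (adjusted p = 0.0608), GLS2 (0.0544), HSPA8 (0.0505), INSIG1 (0.0735), MSMO1 (0.0567) and SQSTM1 (0.0550), and the block within line those of GLS2 (0.0626), HLA-DMB (0.0558), INSIG1 (0.0966) and MSMO1 (0.0558), and neither that of another gene taken by the naming rule.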
